A study of Mus musculus with 39 samples.

Results

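The messenger RNA of 6 secreted or matrix-bound proteins of wounded tissue is described here: Spp1 (osteopontin), Fn1 (fibronectin), Thbs1 (thrombospondin 1), Vcan (versican), Tgfbi (the protein induced by transforming growth factor beta, TGF-beta) and Ecm1 (extracellular matrix protein 1). They are a list of 6 named genes, chosen by symbol and each matched to 1 of the 43430 Ensembl rows of a count table. Polyadenylated RNA was sequenced from sorted lung cells of C57BL/6J mice, as 39 libraries in 8 groups. Lung monocytes of naive mice gave 20 libraries. The other 19 were of alveolar macrophages that derive from monocytes, gated as low in Siglec F, after bleomycin injury, a standard model of lung fibrosis. In each cell type the groups were young saline, young ISRIB, old saline and old ISRIB, with 5 libraries each except 4 in young ISRIB macrophages. No transgene or mutant allele is named for any group. The sample labels put the young mice at 8 to 12 weeks and the old at over 18 months, and the series text at 3 to 5 and 18 to 24 months. ISRIB, an inhibitor of the integrated stress response that restores the activity of eIF2B, was injected daily from day 7 after bleomycin and cells were taken on day 21, per the series text, which gives no schedule for naive mice. Monocytes came only from naive mice and macrophages only from bleomycin mice, so that cell type and injury cannot be told apart in any comparison between them.

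Fibronectin is a large glycoprotein that assembles into fibrils through integrins and forms the first scaffold of a healing wound. Osteopontin, thrombospondin 1 and Tgfbi are matricellular proteins, which sit in the matrix to signal through integrins, CD44, CD36 or CD47 more than to bear load. Thrombospondin 1 also activates latent TGF-beta, versican is a large chondroitin sulfate proteoglycan of provisional matrix, and Ecm1 is a secreted glycoprotein that binds several matrix components. In injured lung, macrophages rich in Spp1 and Fn1 are known as a cell state found near fibrotic tissue, while Thbs1 and Vcan are well known transcripts of blood monocytes.

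In GRCm38 (GENCODE vM21), Spp1 (ENSMUSG00000029304) lies at chr5:104435118-104441050 on the plus strand and Fn1 (ENSMUSG00000026193) at chr1:71585520-71653200 on the minus strand. Thbs1 (ENSMUSG00000040152) lies at chr2:118111876-118127133, plus strand, and Vcan (ENSMUSG00000021614) at chr13:89655312-89742509, minus strand. Tgfbi (ENSMUSG00000035493) is at chr13:56609523-56639562, plus strand, and Ecm1 (ENSMUSG00000028108) at chr3:95734147-95739569, minus strand. Values are whole-gene counts over the annotated exons, which total 1648 bases for Spp1, 11685 for Fn1, 6073 for Thbs1, 14462 for Vcan, 3771 for Tgfbi and 2521 for Ecm1. Exons of Thbs1 overlap Gm29233 and exons of Fn1 overlap Apol7d, both on the opposite strand, and the strand setting of the counting is not given in the sources used here, so that reads of such partners cannot be told apart. Gm29233 held at most 2.09% of the Thbs1 count in any library and Apol7d at most 0.0299% of the Fn1 count. Gm42793, which overlaps exons of Spp1 on its own strand, was not analysed here.

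RefSeq promoter sequences (GRCm38.p6) were matched for 4 of the 6 genes, Spp1, Vcan, Tgfbi and Ecm1, and the 250 bases before the annotated start were read. Ecm1 is printed in part because it varied against Vcan, Tgfbi and Thbs1 among macrophage libraries. Both Spp1 and Ecm1 are printed because they are the members that were higher in macrophages than in monocytes in all 4 pairs of groups. Each is written 5′ to 3′ on its gene's strand, with matches to the motifs searched in capitals.
Spp1, chr5:104434861-104435110, plus strand: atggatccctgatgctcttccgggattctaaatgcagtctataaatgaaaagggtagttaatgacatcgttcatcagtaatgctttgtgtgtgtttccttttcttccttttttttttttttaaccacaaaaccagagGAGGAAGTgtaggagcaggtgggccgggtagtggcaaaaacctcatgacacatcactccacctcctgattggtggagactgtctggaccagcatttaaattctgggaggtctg
Ecm1, chr3:95739570-95739819, minus strand: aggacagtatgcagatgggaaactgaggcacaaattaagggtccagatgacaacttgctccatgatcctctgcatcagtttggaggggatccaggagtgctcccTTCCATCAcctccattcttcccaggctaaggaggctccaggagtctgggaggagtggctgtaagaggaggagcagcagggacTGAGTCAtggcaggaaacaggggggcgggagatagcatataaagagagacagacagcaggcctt

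In these windows 4 motifs were searched on both strands: TGANTCA (AP-1), TGACGTCA (the cyclic AMP response element, CRE), TGATGNAA (the composite element of ATF4 and C/EBP factors) and GAGGAAGT (PU.1, the factor that governs myeloid genes). The Spp1 window held 1 PU.1 match, 113 to 106 bases before the start, and this motif was found in 2.44% of 32851 promoters of this length. The Ecm1 window held TGAGTCA, an AP-1 match, 64 to 58 bases before the start, and the reverse strand of the composite element 146 to 139 bases before it. Across the same 32851 promoters AP-1 was matched in 6.75%, the composite element in 3.45% and CRE in 1.55%. The windows of Tgfbi and Vcan and a second Spp1 start matched none of the 4 motifs. These matches describe letters in a window and are not evidence of binding.

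Depth was 4595331 to 16056708 counts per library (median 8628240), and levels are CPM, a gene's count scaled to a common library total. All 6 genes passed the filter on low counts in each fit. A gene was called when its Benjamini-Hochberg adjusted p over all genes tested by edgeR's quasi-likelihood test was under 0.05, and each change is a log2 fold change ± its SE. Nothing in the labels says whether each library came from its own mouse, so the p-values measure the spread between these libraries. In bulk RNA, fewer cells of a type and less RNA per cell cannot be told apart. The labelled cell types matched their markers: 7 classical monocyte genes, Ly6c2, Ccr2 and Plac8 among them, summed to 5309 to 11258 CPM in monocytes and 182 to 717 CPM in macrophages. Genes of mature alveolar macrophages (13 of 13 matched) summed to 8072 to 18422 CPM in macrophages and 685 to 2173 CPM in monocytes. Fibroblasts also make fibronectin, versican and thrombospondin 1. All 16 fibroblast markers together reached at most 38.5 CPM in a macrophage library and 10.7 CPM in a monocyte library. In old saline macrophages 13 of the 16 averaged under 1 CPM and only 1 was at 0 in all libraries.

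Osteopontin separated the cell types most. In monocytes Spp1 was at 0 to 4.23 CPM over the 20 libraries, with 1 library at 0 counts, which allows up to 0.653 CPM (3 counts of 4595331, counting error only), and in macrophages at 4061 to 13290 CPM over the 19. The log2 difference of macrophages over monocytes, mean of both ages in saline mice, was 12.69 ± 0.33 (SE, adjusted p = 9.22e-30, edgeR), close to 6620-fold. Per kilobase of exon, Spp1 was the most abundant of the 6 genes in macrophages, at 7439 ± 396 CPM per kb in young saline libraries (SD, n = 5) against 1216 ± 221 for Fn1. It ranked between 4 and 8 of all genes by CPM per kb in the 4 macrophage groups, and between 9648 and 10609 in the monocyte groups.

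Ecm1 was also a macrophage gene, at 211 to 680 CPM in macrophages and 34.04 to 60.1 CPM in monocytes. Its log2 difference was 2.98 ± 0.14 (SE, adjusted p = 4.60e-21, edgeR). Thbs1 and Vcan ran the other way. Thbs1 spanned 1051 to 11562 CPM in monocytes and 12.6 to 199 CPM in macrophages, a log2 difference of -4.97 ± 0.45 (adjusted p = 1.34e-12, edgeR). By CPM per kb it ranked between 25 and 99 in the monocyte groups and between 2795 and 7291 in the macrophage groups. Immediate early genes (16 of 16 matched), a list of tissue-handling genes, summed to 10100 to 24120 CPM in monocytes and 2777 to 7840 CPM in macrophages. The part of handling in the values of Thbs1 was not tested. Vcan spanned 138 to 2008 CPM in monocytes and 0.771 to 36.2 CPM in macrophages, a log2 difference of -5.75 ± 0.50 (adjusted p = 4.63e-13, edgeR). In all 4 pairs of groups with the same age and treatment, no macrophage library overlapped any monocyte library for Spp1, Ecm1, Thbs1 or Vcan.

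Fibronectin and Tgfbi were abundant in both cell types. Fn1 was at 4345 to 12360 CPM in monocytes and 5199 to 18638 CPM in macrophages. In young saline mice it was higher in macrophages by 0.76 ± 0.19 on the log2 scale (adjusted p = 8.16e-04, edgeR), and in old saline mice the difference was 0.21 ± 0.19 (adjusted p = 0.356). Tgfbi was at 1315 to 2258 CPM in monocytes and 1128 to 2050 CPM in macrophages, and its mean log2 difference was 0.02 ± 0.09 (adjusted p = 0.830, edgeR). By age it was 0.27 ± 0.13 in young saline mice (adjusted p = 0.0617) and -0.23 ± 0.13 in old (adjusted p = 0.127). Limma voom called the young difference (adjusted p = 0.0355), as did leaving out young saline monocyte replicate 1 (0.0340) or 5 (0.0108).

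Cell type separated most genes. Of 13587 genes tested, 60.0% were called in young saline mice, 57.0% in old and 70.0% over the mean of both ages. The members called were 5 of 6 in young mice, 4 of 6 in old mice, where Fn1 was not called, and 5 of 6 over the mean. Groups did not overlap for 4 members in young saline mice (42.7% of genes averaging at least 1 CPM did not overlap), 5 in young ISRIB (49.5%), 4 in old saline (46.5%) and 5 in old ISRIB (49.9%). The fifth gene was Fn1, higher in macrophages, in young ISRIB mice and Tgfbi, lower in macrophages, in old ISRIB mice. The 6 genes together took 2.57 to 3.45% of all counts in young saline macrophages and 1.22 to 2.16% in old ISRIB macrophages. In monocytes this share was 0.738 to 2.31%.

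**Figure D1:**
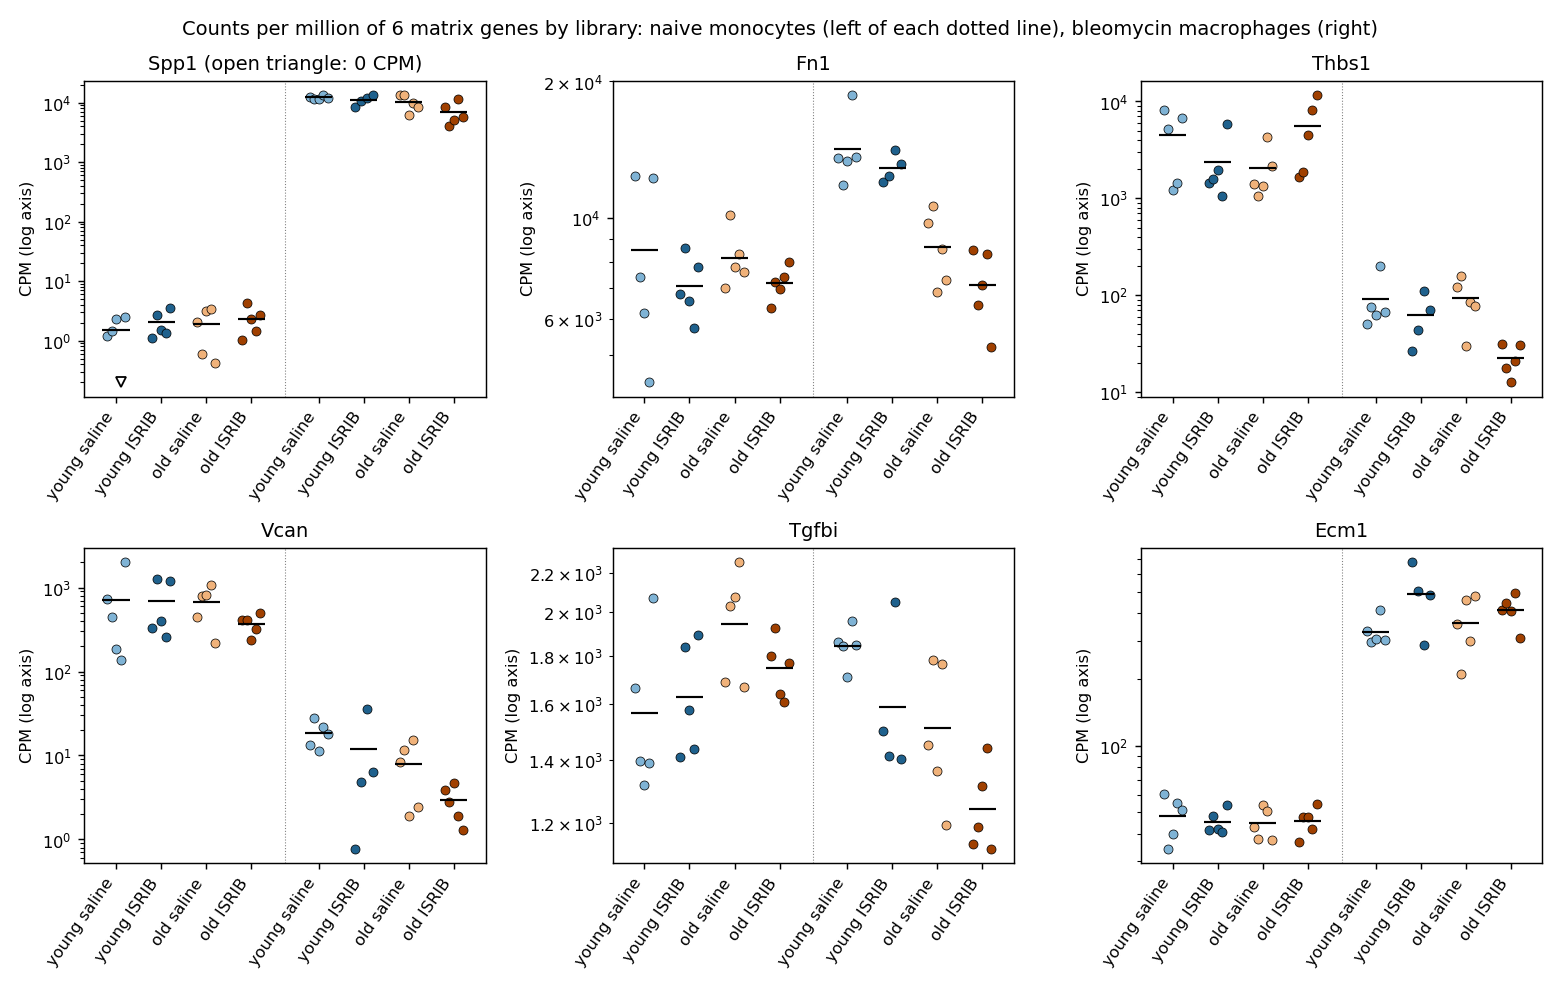
CPM (log axis) of each gene in every library, by group, with the mean of each group as a black bar. Spp1 and Ecm1 are high in macrophages, Thbs1 and Vcan in monocytes, and the old macrophage groups lie below the young ones for Fn1.

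Fibronectin fell with age in macrophages, in saline and in ISRIB mice alike. The young saline libraries held 13576, 11845, 13384, 18638 and 13624 CPM of Fn1, and the old saline libraries 9739, 10612, 6884, 8543 and 7291 CPM. Every old library was lower than every young one. The log2 change was -0.68 ± 0.13 (SE, adjusted p = 0.0103, edgeR), where 1.16% of genes were called and 3.21% did not overlap. Without young saline replicate 4, the library at 18638 CPM, the change was -0.56 (adjusted p = 0.0476).

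In ISRIB mice the young libraries held 12016, 12401, 14092 and 13161 CPM of Fn1 and the old libraries 8483, 6443, 7107, 8327 and 5199 CPM. Again the groups did not overlap. The log2 change was -0.87 ± 0.14 (adjusted p = 0.00160, edgeR), with 0.937% of genes called and 5.07% not overlapping. Over the mean of saline and ISRIB the change was -0.77 ± 0.10 (adjusted p = 2.14e-05), and it was called in each of the 19 fits that left out 1 library. Fn1 was the only member called in either single comparison of age. In the saline comparison the call was lost in a fit of all 39 libraries (adjusted p = 0.109, edgeR). That fit redid the filter, the scaling, the spread and the adjustment together.

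Versican and Tgfbi joined fibronectin when both treatments were averaged: 3 of 6 members were called lower in old macrophages, against 4.86% of all genes called in either direction. Tgfbi was at 1861, 1844, 1709, 1957 and 1850 CPM in young saline libraries and at 1452, 1779, 1363, 1764 and 1195 CPM in old saline ones. With ISRIB it was at 1502, 1413, 2050 and 1401 CPM in young mice and at 1140, 1190, 1313, 1439 and 1128 CPM in old. Old and young libraries overlapped in each treatment. The mean age change was -0.30 ± 0.08 on the log2 scale (adjusted p = 0.0274, edgeR). The call was lost without young saline replicate 4 (0.0528), young ISRIB replicate 3 (0.0836), old saline replicate 5 (0.0525), or old ISRIB replicate 2 (0.0504) or 5 (0.0546), and over all 39 libraries (0.0703).

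Vcan was at 13.2, 28.3, 11.3, 21.6 and 18.2 CPM in young saline macrophages and at 8.47, 11.6, 1.88, 15.3 and 2.44 CPM in old saline ones. With ISRIB it was at 0.771, 4.82, 36.2 and 6.42 CPM in young mice and at 3.93, 2.78, 4.75, 1.89 and 1.29 CPM in old. The young ISRIB group thus held both the lowest and the highest macrophage library. The mean age change was -1.58 ± 0.45 (adjusted p = 0.0404, edgeR). Without young ISRIB replicate 3, at 36.2 CPM, it was -0.81 (adjusted p = 0.290). The call was also lost, with adjusted p between 0.0504 and 0.0791, on leaving out 1 library among replicates 1, 2, 4 and 5 of young saline, 1, 3 and 5 of old saline, and 2, 4 and 5 of old ISRIB. Voom gave 0.259, the fit of all 39 libraries 0.116 and a fit with the replicate number as a block 0.107 (change -1.40).

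For osteopontin the age change was not called. Spp1 held 12572, 11641, 11756, 13231 and 12094 CPM in young saline macrophages, a coefficient of variation of 5.32%. In old saline macrophages it held 13238, 13290, 6274, 9966 and 8513 CPM, a coefficient of 29.7%. The log2 change was -0.21 ± 0.22 (adjusted p = 0.771, edgeR). With ISRIB the young libraries held 8387, 10872, 12213 and 13250 CPM and the old 8581, 4061, 5044, 11357 and 5719 CPM, a change of -0.68 ± 0.23 (adjusted p = 0.166). The library at 11357 CPM stood above the other 4 of its group: without it, old ISRIB replicate 4, the change was -0.95 (adjusted p = 0.0200), and the mean over both treatments went from -0.45 ± 0.16 (adjusted p = 0.1075) to -0.58 (adjusted p = 0.0129). The age difference of Thbs1 was 0.11 ± 0.38 in saline mice (adjusted p = 0.953) and -1.44 ± 0.43 in ISRIB mice (adjusted p = 0.117). Without young ISRIB replicate 1 the latter was -1.71 (adjusted p = 0.0466). The age change of Vcan in ISRIB mice was -1.99 ± 0.68 (adjusted p = 0.173, edgeR). It was -2.40 (adjusted p = 0.0460) without young ISRIB replicate 1, the lowest Vcan library of its group, and -0.44 (adjusted p = 0.847) without replicate 3, the highest. For Ecm1 the values were 0.17 ± 0.19 in saline and -0.25 ± 0.20 in ISRIB mice (adjusted p = 0.796 and 0.678).

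The fall of fibronectin in macrophages was set against monocytes, where Fn1 averaged 8516 ± 3638 CPM in young saline and 8181 ± 1193 CPM in old saline mice (SD, n = 5 each). The difference of the age effects between the cell types was -0.74 ± 0.19 for Fn1 (adjusted p = 0.0560, edgeR) and -0.50 ± 0.13 for Tgfbi (adjusted p = 0.0509). Both missed the threshold, 0 of 6 members were called, and 0.743% of genes were. With median-ratio size factors the adjusted p was 0.0464 for Fn1 and 0.0413 for Tgfbi, with DESeq2 0.0117 and 0.0130, and with voom 0.0316 for both. Leaving out 1 library gave a call for Fn1 in 8 of 39 fits and for Tgfbi in 10 of 39.

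**Figure D2:**
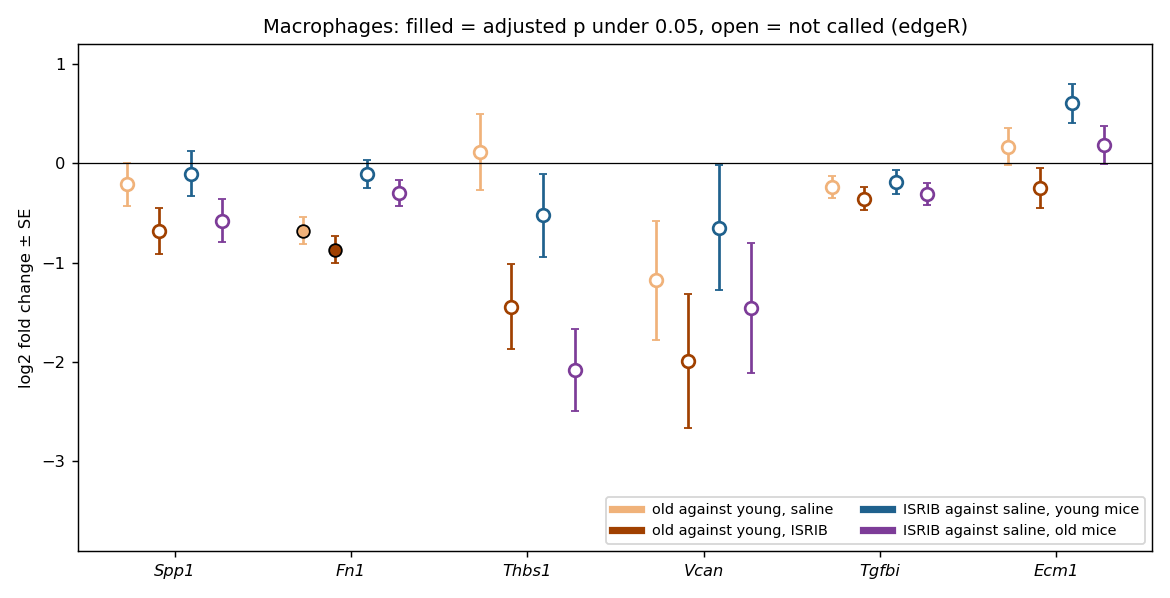
Log2 fold changes (± SE) of the 6 genes in macrophages for old against young mice and for ISRIB against saline; filled points were called and open points were not. The filled points are Fn1 at -0.68 and -0.87, and the lowest ISRIB change is Thbs1 in old mice.

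Thrombospondin 1 was the only member called for ISRIB in macrophages, and only over the mean of both ages. In old mice the saline libraries held 122, 159, 29.6, 85.1 and 77.3 CPM of Thbs1 and the ISRIB libraries 31.7, 17.7, 12.6, 20.7 and 30.6 CPM. Only old saline replicate 3, at 29.6 CPM, reached into the ISRIB range. The log2 change was -2.08 ± 0.41, close to 4.22-fold lower, with an adjusted p of 0.139 (unadjusted p = 3.42e-05, edgeR). In this comparison 0% of genes were called and 1.12% did not overlap, while 1112 of 12171 genes and 5 of 6 members had an unadjusted p under 0.05. DESeq2 called 28 genes and voom 0. Without old saline replicate 3 the change was -2.31 (adjusted p = 0.0154), without old saline replicate 5 it was -2.15 (adjusted p = 0.0400), and DESeq2 on the same libraries gave an adjusted p of 0.0244.

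In young mice Thbs1 held 50.1, 74.9, 62.7, 199 and 67.4 CPM with saline and 26.3, 43.7, 111 and 69.6 CPM with ISRIB, and the groups overlapped. The change was -0.52 ± 0.42 (adjusted p = 0.639, edgeR), in a comparison with 0% of genes called and 4.05% not overlapping. Here 1513 genes and 1 member had an unadjusted p under 0.05, and DESeq2 called 90 genes and voom 0. Between the ages, the effect of ISRIB on Thbs1 differed by -1.55 ± 0.58 (unadjusted p = 0.0125, adjusted p = 0.954), where 0% of genes were called by edgeR, 0 by DESeq2 and 0 by voom, and 621 had an unadjusted p under 0.05. Averaged over both ages, Thbs1 fell by 1.30 ± 0.29 on the log2 scale (adjusted p = 0.0341) and was the 1 member of 6 called, beside 0.830% of genes. That call was narrow: voom gave 0.0543 and the fit of all 39 libraries 0.168. It was lost in 11 of the 19 fits that left out 1 library, with adjusted p from 0.0512 to 0.0983. These were replicates 2 and 4 of young saline, 1, 2 and 4 of young ISRIB, 1, 2 and 4 of old saline, and 2, 3 and 5 of old ISRIB.

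No other member was called for ISRIB in macrophages at either age. In old mice the log2 changes were -0.58 ± 0.22 for Spp1 (adjusted p = 0.455, edgeR), -0.30 ± 0.13 for Fn1 (0.504), -1.46 ± 0.65 for Vcan (0.507), -0.31 ± 0.11 for Tgfbi (0.417) and 0.19 ± 0.19 for Ecm1 (0.831). In young mice they were -0.10 ± 0.23 for Spp1 (0.896), -0.11 ± 0.14 for Fn1 (0.789), -0.65 ± 0.63 for Vcan (0.714) and -0.19 ± 0.12 for Tgfbi (0.515). The Vcan value in young mice turned on single libraries: it was -2.20 (adjusted p = 0.0511) without young ISRIB replicate 3 and -0.24 (adjusted p = 0.925) without young ISRIB replicate 1. The libraries of both treatments overlapped for each of the 6 genes at each age.

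Ecm1 pointed the other way. Young saline macrophages held 331, 296, 305, 412 and 300.4 CPM and young ISRIB macrophages 680, 504, 286 and 481 CPM. Of the ISRIB libraries 3 exceeded every saline library, and replicate 3 lay below them all. The log2 change was 0.60 ± 0.20 (unadjusted p = 0.00563, adjusted p = 0.197, edgeR), and without replicate 3 it was 0.80 (adjusted p = 0.0232). In old mice the saline libraries held 355, 211, 457, 297 and 477 CPM and the ISRIB libraries 414, 443, 410.2, 495 and 308 CPM.

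Young ISRIB replicate 3 was the library of its group with the highest Vcan, Tgfbi, Thbs1 and Fn1 and the lowest Ecm1. Its classical monocyte markers summed to 399 CPM, against 285 to 290.1 CPM in the other 3 libraries of the group. Its mature alveolar macrophage markers were also the highest of the group (11845 CPM), and its immediate early genes to 2777 CPM against 4784 to 7840 CPM. Without it, the mean ISRIB change over both ages was -1.83 for Vcan (adjusted p = 0.00939), -0.31 for Tgfbi (0.0175) and 0.49 for Ecm1 (0.0176), where with it the values were -1.05 ± 0.45 (0.236), -0.25 ± 0.08 (0.1095) and 0.39 ± 0.14 (0.134). Tgfbi was also called without old saline replicate 5 (0.0360). Replicate 3 was kept in every result unless stated.

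Across the 19 macrophage libraries 5 of the genes varied together. Ecm1 varied against Vcan, Tgfbi and Thbs1, and little with Spp1 or Fn1. On log2 CPM, Pearson's r between pairs of Spp1, Fn1, Thbs1, Vcan and Tgfbi ran from 0.60 (Spp1 with Vcan) to 0.81 (Tgfbi with Vcan). Ecm1 had r of -0.69 with Vcan, -0.51 with Tgfbi, -0.49 with Thbs1, -0.27 with Spp1 and -0.12 with Fn1. With group means removed, the same pairs ran from 0.39 (Spp1 with Vcan), 0.41 (Thbs1 with Tgfbi) and 0.47 (Spp1 with Tgfbi) to 0.66 (Tgfbi with Vcan) and 0.75 (Spp1 with Fn1). These are descriptions over libraries that share groups, handling and depth. In the 20 monocyte libraries all 15 pairs were positive, Ecm1 included, with r from 0.24 to 0.78.

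The same libraries differed in the markers of other cell states, and these values stand beside the age and ISRIB results. The 7 classical monocyte markers summed to 383 to 580 CPM in young saline, 285 to 399 in young ISRIB, 207 to 717 in old saline and 182 to 329 in old ISRIB macrophages. Tgfbi followed that sum most closely, with r = 0.90 and Spearman's rho = 0.91 over 19 libraries, 0.92 without the 2 libraries farthest from the median and 0.84 within groups. Vcan followed with r = 0.78, Fn1 and Spp1 with 0.70 each and Thbs1 with 0.66, while Ecm1 had r = -0.48. Old saline replicate 4 had the highest sum, 717 CPM. The share of these markers in the members' changes was not tested.

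**Figure D3:**
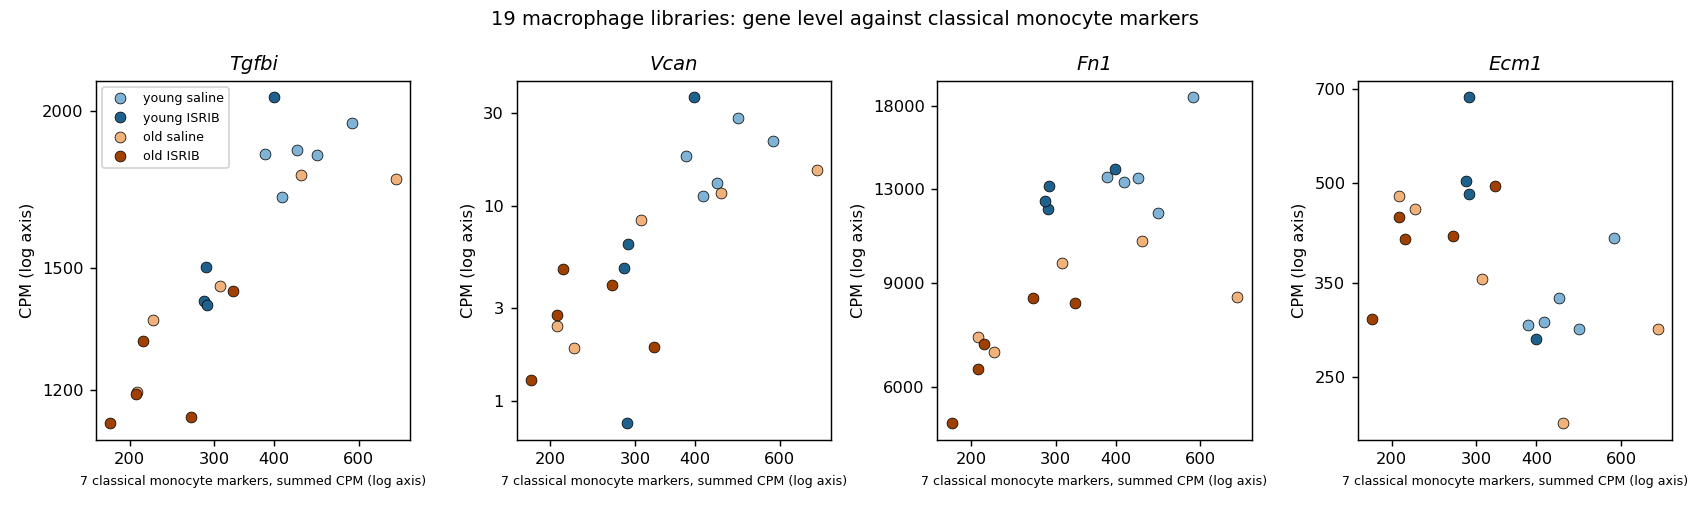
CPM of Tgfbi, Vcan, Fn1 and Ecm1 in the 19 macrophage libraries (log axis) against the summed CPM of 7 classical monocyte markers (log axis), coloured by group. Tgfbi and Vcan climb with the markers, Ecm1 declines, and the young libraries lie above the old ones for Fn1.

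Mature alveolar macrophage markers summed to 8072 to 10574 CPM in young saline, 8904 to 11845 in young ISRIB, 8274 to 12996 in old saline and 10980 to 18422 in old ISRIB macrophages. Spp1 ran against this sum, with r = -0.83 and rho = -0.61 over 19 libraries, -0.68 without the 2 farthest libraries and -0.67 within groups. The sum that Spp1 ran against most was that of alveolar and airway epithelium (14 of 14 genes matched), with r = -0.85, rho = -0.70, -0.72 without the 2 farthest libraries and -0.81 within groups. This sum was 126 to 194 CPM in young saline, 136 to 167 in young ISRIB, 106 to 306 (median 115) in old saline and 157 to 322 (median 202) in old ISRIB macrophages. Krt19, a keratin, was its most abundant gene in old macrophages, with means of 76.9 CPM with saline and 126 CPM with ISRIB, while Sftpc, the surfactant protein of alveolar type II cells, averaged 6.31 and 6.41 CPM. The part of these cells in the values of Spp1 was not tested. Genes of B and plasma cells (10 of 10 matched) summed to 6.72 to 29.5 CPM in young macrophages, at most 415 CPM in old saline and 154 to 601 CPM in old ISRIB macrophages. In old ISRIB macrophages Ighm averaged 187 CPM and Igkc 70.04 CPM. Genes of T and NK cells (12 of 12 matched) summed to 5.04 to 12.6 CPM in young and 10.7 to 48.2 CPM in old macrophages. Fn1 had r = -0.88 with the B and plasma cell sum and -0.90 with the T and NK cell sum over the 19 libraries, and -0.43 and -0.55 within groups. Tgfbi and Vcan had r = -0.87 and -0.74 with the T and NK cell sum, and -0.76 and -0.63 within groups. The part of these cells in the age changes of Fn1, Tgfbi and Vcan was not tested. Interstitial macrophage genes summed to 3957 to 5253 CPM in young and 3196 to 4441 CPM in old macrophages.

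In monocytes no member was called by edgeR, DESeq2 or voom in any of the 7 comparisons. Of 42 tests of a member, 5 had an unadjusted p under 0.05 (edgeR). Over the 7 comparisons 6.60 to 8.81% of all genes did, so that the count was near the background. The share of all genes called was 0% for ISRIB in old mice, ISRIB in young mice, their difference and their mean, 0.0247% for age in saline mice, 0% for age in ISRIB mice and 0.123% for age over both treatments. Thbs1 had the widest differences between monocyte groups. Its libraries held 8175, 5210, 1225, 1448 and 6689 CPM in young saline and 1427, 1572, 1977, 1051 and 5832 CPM in young ISRIB. Old saline held 1409, 1056, 1350, 4273 and 2155 CPM, and old ISRIB 1646, 1856, 4536, 8160 and 11562 CPM. Each group spread over at least 4-fold and all groups overlapped.

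The ISRIB change of Thbs1 in monocytes was 1.51 ± 0.60 in old mice (unadjusted p = 0.0199, adjusted p = 0.568, edgeR) and -0.96 ± 0.59 in young mice (adjusted p = 0.758). The difference between them was 2.47 ± 0.85 (unadjusted p = 0.0077, adjusted p = 0.561). The difference of the mean ISRIB effects between macrophages and monocytes was -1.57 ± 0.57 for Thbs1 (adjusted p = 0.426), with 0 of 6 members and 0% of genes called by edgeR. Of the genes, 1138 had an unadjusted p under 0.05, DESeq2 called 37 and voom 0. Thbs1 did not follow the classical monocyte markers among monocyte libraries (r = 0.03, n = 20), unlike Vcan (r = 0.77), Tgfbi (0.68) and Fn1 (0.65). Neutrophil genes, which summed to 93.2 to 381 CPM in monocytes, ran with Vcan at r = 0.92 and with Tgfbi at 0.78. Of the 11 neutrophil genes, 7 to 9 averaged under 1 CPM in each monocyte group, so that this sum rests on few genes. The age difference of Tgfbi in saline monocytes was 0.27 ± 0.13 (adjusted p = 0.565).

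Integrins and other receptors of these proteins were the next group described, from a list of 25 genes of which 19 were tested in macrophages. Over the mean of saline and ISRIB, 3 fell with age and 1 rose (4 of 19 called, beside 4.86% of all genes), and the list's median log2 change was 0.07 against 0.00 over all genes. Itgav, the alpha chain of the integrins that bind osteopontin and fibronectin, fell by 0.50 ± 0.07 (adjusted p = 1.85e-04, edgeR), and averaged 152 ± 12.4 CPM in young saline against 118 ± 19.6 CPM in old saline macrophages (SD, n = 5). In ISRIB mice the young libraries averaged 159 CPM and the old 99.9 CPM, with no overlap. Itga5, the alpha chain of the classical fibronectin receptor, fell by 0.29 ± 0.07 (adjusted p = 0.0172), with no overlap of old and young libraries in either treatment. Itga4, which pairs with integrin beta 1 to bind fibronectin and osteopontin, fell by 0.26 ± 0.07 (adjusted p = 0.0413).

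Cd36, a scavenger receptor that binds thrombospondin 1, was the receptor that rose with age, by 0.67 ± 0.15 (adjusted p = 0.00754, edgeR). It also rose with ISRIB over both ages, by 0.76 ± 0.15 (adjusted p = 0.0179), while Itga5 fell with ISRIB by 0.32 ± 0.07 (adjusted p = 0.0341). Cd36 reached 533 ± 86.7 CPM in old ISRIB macrophages against 272 ± 82.6 CPM in old saline ones (SD, n = 5 each), with no overlap. For ISRIB at a single age edgeR called 0 of 19 receptors, beside 0% of all genes. An unadjusted p under 0.05 was found for 6 of 19 in old mice (9.14% of all genes) and 6 in young mice (12.4%). With age in ISRIB mice alone, Itgav (-0.67 ± 0.11, adjusted p = 0.00141) and Itga4 (-0.49 ± 0.11, adjusted p = 0.0234) were called lower, beside 0.937% of all genes. With age in saline mice alone 0 of 19 were called, beside 1.16% of all genes, and 7 had an unadjusted p under 0.05, beside 12.7%.

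Of 35 enzymes that cleave, cross-link or glycosylate these proteins, 23 were tested in macrophages. With age over both treatments 3 rose and 3 fell, beside 4.86% of all genes called, with a list median of -0.05. Mmp2, a gelatinase, rose by 2.36 ± 0.46 (adjusted p = 0.00282, edgeR), with means of 8.79 ± 2.71 CPM in young saline and 66.04 ± 81.9 CPM in old saline macrophages (SD, n = 5). Its old saline libraries ran from 16.3 to 211 CPM. Mmp9, the other gelatinase and also a neutrophil marker, rose by 2.41 ± 0.61 (adjusted p = 0.0191) from a low level, with a mean of 0.954 CPM in young saline and 5.10 CPM in old saline libraries. Ctsd, a lysosomal protease, rose by 0.31 ± 0.07 (adjusted p = 0.0105). The sheddase Adam10 fell by 0.33 ± 0.08 (adjusted p = 0.0227) and Xylt1, which starts the chondroitin chains carried by versican, by 0.49 ± 0.13 (adjusted p = 0.0242). In saline mice alone Mmp2 (2.97 ± 0.62, adjusted p = 0.0163) and Ctsd (0.43 ± 0.10, adjusted p = 0.0231) were called, and in ISRIB mice alone Adam9 (-0.44 ± 0.09, adjusted p = 0.0117). For ISRIB in macrophages edgeR called 0 of 23 enzymes, where 0% of all genes were called at either age and 0.830% over the mean. An unadjusted p under 0.05 was found for 4 enzymes in old mice (9.14% of all genes), 3 in young mice (12.4%) and 6 over the mean (16.6%), so that the count in young mice was near the background.

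Among 45 symbols of other matricellular proteins, 39 were matched and 13 were tested in macrophages. With age over both treatments 2 rose and 1 fell of 13, beside 4.86% of all genes called, with a list median of 0.18. Gpnmb, a transmembrane glycoprotein of lipid-laden and fibrosis-associated macrophages, rose by 0.76 ± 0.14 (adjusted p = 0.00185, edgeR), with 889 ± 99.3 CPM in young saline and 1762 ± 419 CPM in old saline macrophages (SD, n = 5). In saline mice alone it rose by 1.03 ± 0.19 (adjusted p = 0.00912) and the groups did not overlap. Emilin2, an elastin-associated glycoprotein, fell by 0.56 ± 0.09 (adjusted p = 4.78e-04), and old and young libraries did not overlap in either treatment. In ISRIB mice alone Emilin2 fell by 0.69 ± 0.13 (adjusted p = 0.00882). The remaining called genes were close to the limit of detection: Smoc1, higher with age, averaged at most 1.77 CPM in any macrophage group, and Sparcl1, lower with ISRIB, at most 1.26 CPM.

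TGF-beta induces Fn1, Tgfbi and Thbs1 in many cells, so its supply and response genes were listed too: 28 genes, 24 of them tested in macrophages. With age over both treatments 2 rose and 1 fell of 24, beside 4.86% of all genes called, with a list median of -0.01. Pmepa1, a feedback inhibitor induced by TGF-beta, fell by 0.56 ± 0.08 (adjusted p = 1.87e-04, edgeR), and old and young libraries did not overlap in saline mice (193 ± 31.3 against 124 ± 15.8 CPM, young against old, SD, n = 5) or in ISRIB mice. It was called in both single comparisons, at -0.60 ± 0.11 in saline (adjusted p = 0.00912) and -0.52 ± 0.12 in ISRIB mice (adjusted p = 0.0293). Of the genes that rose, Ltbp4, which binds latent TGF-beta, was measured at no more than 1.38 CPM on average. With ISRIB over both ages Tgfb1 fell by 0.20 ± 0.05 (adjusted p = 0.0429) and the receptor Tgfbr2 rose by 0.29 ± 0.07 (adjusted p = 0.0429), the only 2 of 24 called, beside 0.830% of all genes.

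In monocytes edgeR called none of the genes of these 4 lists for ISRIB or for age. In any 1 of these comparisons at most 3 of 20 receptors, 6 of 22 enzymes, 3 of 8 other matricellular genes and 3 of 21 TGF-beta genes had an unadjusted p under 0.05, beside 6.60 to 8.81% of all genes. Between macrophages and monocytes, mean of both ages in saline mice, most were: 14 receptors were higher and 5 lower of 20 tested, 15 enzymes higher and 6 lower of 23, 11 other matricellular genes higher and 1 lower of 15, and 11 TGF-beta genes higher and 9 lower of 26, beside 70.0% of all genes. Itgax, the CD11c chain, was higher in macrophages by 5.80 ± 0.29 on the log2 scale, and Itgb3, the partner of Itgav in the vitronectin receptor, was lower (-4.46 ± 0.33). Mmp12, the macrophage elastase, was higher by 10.34 ± 0.39 and Gpnmb by 9.06 ± 0.30.

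**Figure D4:**
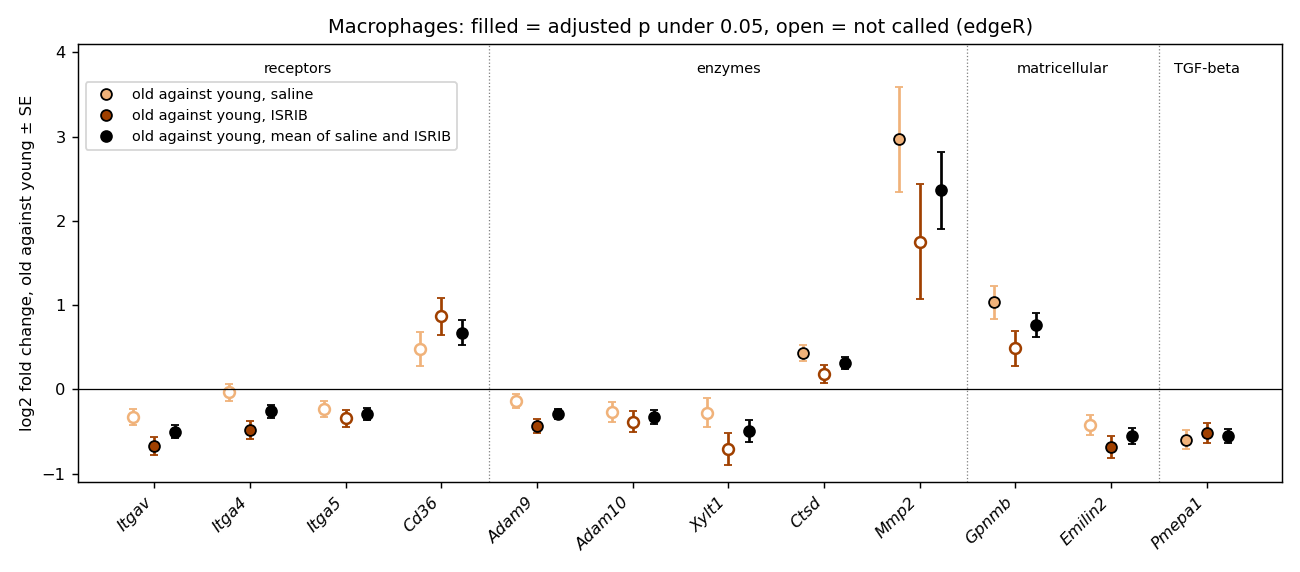
Log2 fold changes (± SE) of old against young macrophages for 12 of the called genes of the 4 lists, in saline mice, in ISRIB mice and over their mean; filled points were called. Itgav, Itga4, Itga5, Emilin2 and Pmepa1 lie below 0 and Cd36, Ctsd, Mmp2 and Gpnmb above it in the mean.

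The ratio of Spp1 to Fn1 counts shows whether both genes moved in proportion. In young saline macrophages it was 0.926, 0.983, 0.878, 0.710 and 0.888, and in old saline macrophages 1.36, 1.25, 0.911, 1.17 and 1.17. The mean log2 ratio was 0.41 higher in old than in young saline mice (two-sided exact permutation test, p = 0.0238, 0.0952 adjusted over 4 comparisons). In old ISRIB macrophages it was 1.01, 0.630, 0.710, 1.36 and 1.10, and the log2 ratio differed by -0.33 from old saline (exact permutation p = 0.214, adjusted 0.429). The differences in young mice with ISRIB (-0.03) and with age in ISRIB mice (0.11) had exact permutation p of 0.754 and 0.651. The smallest p these tests can reach is 0.00794 for 5 against 5 libraries and 0.0159 for 4 against 5.

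For each member the 3 genes most like it were taken over the 19 macrophage libraries, by Pearson's r of log2 CPM with genes averaging at least 5 CPM as candidates, as a description without a test. Spp1 was followed most closely by Cacna1d (r = 0.95, 0.92 within groups), C1qb (0.92) and Pam (0.91). For Fn1 these were Olfm1, B4galt1 and Prune2, each with r = 0.94, or 0.70 to 0.82 within groups. Thbs1 was nearest to Dck (0.87), Twf1 (0.83) and Arg1, the arginase of alternatively activated macrophages (0.82). Vcan was nearest to Ciao2a (0.92), Cdc42se1 (0.91) and Mcm6 (0.90), and Tgfbi to the coagulation factor gene F7 (0.93), Emilin2 and S100a4 (0.91 each). Ecm1 had the loosest neighbours, Stxbp5 (0.84), Fam102b (0.82) and Ago2 (0.81). These values share libraries, groups and depth with the marker sums above.

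Ordered by mean CPM over the 8 groups, Fn1 stood highest in young saline macrophages (14213 ± 2580 CPM, SD, n = 5), then young ISRIB macrophages (12917 ± 916, n = 4), and only below these did a step without overlap follow, to old saline macrophages (8614 ± 1582, n = 5). The next 5 groups, down to 7098 ± 1118 CPM in young ISRIB monocytes, overlapped with their neighbours, old ISRIB macrophages (7112 ± 1366) among them. For Spp1, Thbs1, Vcan and Ecm1 the only step without overlap in the order was the one between the cell types. Tgfbi had no such step: it ran from 1943 ± 256 CPM in old saline monocytes to 1242 ± 132 CPM in old ISRIB macrophages (SD, n = 5 each), and each group overlapped the next.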

How the data were processed

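RNA of sorted mouse lung cells was sequenced in 39 libraries. The authors deposited 1 table of raw whole-number read counts per Ensembl gene, per the file headers, with no normalization. The submitters' processing notes name bcl2fastq 2.19.1, FastQC, Trimmomatic 0.36, STAR 2.6.0, HTSeq 0.11.2 and mm10. No source used here gives the annotation version or strand setting. Of the 43430 rows, 42462 were matched to a symbol. Each library's counts differed from those of its replicates by more than sampling noise (76 pairs, chi-square per degree of freedom 7.26 to 57.7). Python 3.11.15 was used to compute CPM, marker sums and correlations.

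Genes were filtered with filterByExpr (minimum count 10, minimum total 15), scaled by TMM and tested with edgeR 4.0.16 in R 4.3.3 (quasi-likelihood, Benjamini-Hochberg adjustment over all genes tested). The macrophage fit held 19 libraries and 12171 genes, the monocyte fit 20 and 12170, and the fit of both 39 and 13587. Alternatives were median-ratio factors, DESeq2 1.42.0, limma voom 3.58.1, no filter, a replicate block, other sets of libraries in the fit, and leaving out each library in turn. The code was tested on simulated data. The members and lists were chosen with earlier results of these data known. All 6 members are named, up to 5 called genes per list and comparison with the largest change, and 3 most alike genes per member, except for items not reported here. Replicate numbers were not used to pair the samples in the main fits. The limit given for a count of 0 covers counting error only. Errors are edgeR's SE or the SD between libraries.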

Additional observations from a re-analysis of the deposited data

Results flagged for a closer look

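In 5 of 48 sets of values, each gene in each group, 1 library stood apart from the rest by more than Dixon's 95% criterion. Chance alone passes it in about 1 of 20 independent sets, but these sets share libraries and are not independent. Young saline macrophage replicate 4 held 18638 CPM of Fn1 and 199 CPM of Thbs1, above the other 4 libraries for both. Young ISRIB macrophage replicate 3 held 36.2 CPM of Vcan and 2050 CPM of Tgfbi, also above the rest of its group. In monocytes, young ISRIB replicate 5 held 5832 CPM of Thbs1.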

How the results depend on the processing

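Under the settings other than leaving out single libraries, 104 counts of members called or Spp1 to Fn1 ratios stayed close to the main value and 17 counts moved. Without a filter on low counts, members called became 3 for ISRIB in old macrophages, 1 in young, 1 for their difference and 5 for the mean, and 2, 5 and 5 for age in saline, in ISRIB and over the mean. For Thbs1 with ISRIB in old mice, dropping the filter took edgeR's adjusted p from 0.139 to 1.10e-15, at log2 changes of -2.08 and -2.09. DESeq2 called 1 member for ISRIB in old mice. Voom called 0 for the ISRIB mean. In the fit of all 39 libraries the count was 0 for age in saline, 0 for the ISRIB mean and 1 for the age mean, and on the 2 groups only it was 2 for age in ISRIB. For the difference of age effects between cell types, 2 members were called with median-ratio factors, DESeq2, voom and no filter alike. The share of all genes called under each setting is not given beside these counts, so that they cannot be read as results about the members. The Vcan difference of ISRIB effects was 1.07 with voom and -0.81 otherwise, a reversal whose cause was not tested.

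Leaving out 1 library at a time, members called ranged from 0 to 1 for ISRIB in old mice, 0 to 1 in young, 0 to 4 over the mean, 1 to 3 for age in ISRIB, 1 to 3 for the age mean and 0 to 2 for the difference of age effects. The share of all genes called in the same fits is not given here, so that these ranges show how calls depend on single libraries and no more. In macrophages 6 of 42 changes of a member crossed 0: Spp1 (-0.21 to 0.016) and Fn1 (-0.17 to 0.0054) for ISRIB in young mice, Thbs1 for age in saline (-0.15 to 0.61) Ecm1 for the age mean (-0.14 to 0.055), and the differences of ISRIB effects of Vcan (-1.22 to 0.74) and Tgfbi (-0.19 to 0.011). In monocytes 19 of 42 did, none of them called, among them Vcan (-0.37 to 0.82) and Tgfbi (-0.049 to 0.14) for ISRIB in young mice and Fn1 for age in saline (-0.28 to 0.099). Across cell types 3 of 30 did: the cell type difference of Tgfbi (-0.015 to 0.079), the difference of age effects of Ecm1 (-0.086 to 0.11) and that of ISRIB effects of Fn1 (-0.099 to 0.097). The log2 ratio of Spp1 to Fn1 ranged from -0.11 to 0.069 for ISRIB in young mice, 0.34 to 0.50 for age in saline and -0.025 to 0.25 for age in ISRIB.

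Replicate numbers were not taken as pairs. Same-numbered macrophage libraries had a median correlation of deviations of -0.004 (-0.24 to 0.30, 6 of 27 pairs over 0.1). For monocyte libraries it was -0.012 (-0.33 to 0.42, 9 of 30). A median near 0 cannot exclude that some groups share pairs. With the replicate block the Vcan age mean was -1.40 (adjusted p = 0.107) and the block changed no other member's call. No paired permutation of the ratio was made, because the numbers were not taken as pairs.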
